A study of Mus musculus with 16 samples.

Results

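The genes described here are 10 that build and feed organized lymphoid tissue: the lymphotoxins *Lta* and *Ltb* and their receptor *Ltbr*, the chemokines *Cxcl13*, *Ccl19* and *Ccl21a*, the chemokine receptors *Ccr7* and *Cxcr5*, and the vascular addressins *Glycam1* and *Madcam1*. They were found by gene symbol in a table of 26382 genes, which lists all 10. The table holds bulk RNA sequencing of mouse muscle in 16 libraries from 9 female C57BL/6 mice of 8 to 10 weeks, taken 14 days after injection. In 5 mice (m862 to m866) the titles mark the left leg as injected, with HRS (histidyl-tRNA synthetase, the Jo-1 autoantigen of myositis) at 3 to 5 mg/mL as the treatment, and the right leg as injected with PBS, and each leg gave a library. These groups are called HRS legs and contralateral PBS legs (*n* = 5 each). A pair of further mice (m867 and m868) had PBS in both legs and gave 4 libraries, called PBS-only. Mice m860 and m861 carry the same HRS treatment label, but their titles name a fusion protein with MBP at 2 to 3 mg/mL and no leg. They gave 1 library each and are called HRS-MBP. The study's general protocol describes injection into both hamstrings, which differs from the titles of m862 to m866, so whether the contralateral legs received PBS alone rests on the titles. All mice share the strain and carry no engineered allele in the labels.

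Lymphotoxin α and lymphotoxin β form a membrane-bound trimer on lymphocytes that signals through the lymphotoxin β receptor on stromal cells. This signal, passed on through the noncanonical NF-κB pathway, maintains the chemokines that sort lymphocytes into zones: CXCL13 draws CXCR5-bearing B cells and follicular helper T cells, and CCL19 and CCL21 draw CCR7-bearing T cells and dendritic cells. GlyCAM-1 and MAdCAM-1 are carried by high endothelial venules, the vessels through which lymphocytes enter lymph nodes, and normal skeletal muscle has no such tissue.

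The chemokines, the lymphotoxins and their lymphocyte receptors were higher on average in the HRS legs than in either kind of PBS leg, and the genes that define the vessels of a lymph node were detected at low levels in 4 of the 5 HRS legs. Counting implied reads, the level in HRS legs was 25.8 times that in contralateral PBS legs for *Ltb*, 20.9 times for *Ccl19*, 38.8 times for *Ccr7* and 5.56 times for *Ccl21a*. Among the chemokines *Cxcl13* had the lowest ratio, 3.2, and its contralateral PBS legs reached above every PBS-only leg in 3 of 5 mice. The receptor *Ltbr* was present in every library and differed least, with a ratio of 1.58. Its contralateral PBS legs were above every PBS-only leg in 4 of 5 mice.

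Values are the authors' normalized counts. A read is worth between 0.0108 and 0.121 of this unit depending on the library, so that the implied depth ran from 8600000 reads (PBS-only mouse m868, right leg) to 73900000. For tests across genes, limma was run on log2(normalized count + 0.5). The 16414 genes whose mean over all libraries reached 0.5 entered the fit, and a gene was called at a Benjamini-Hochberg adjusted p under 0.05 with an absolute log2 fold change above 1. Of the 10 genes, 6 passed this filter (*Cxcl13*, *Ccl19*, *Ccl21a*, *Ccr7*, *Ltb* and *Ltbr*) and *Lta*, *Cxcr5*, *Glycam1* and *Madcam1* did not. *Ccr7* and *Ltb* lay under that mean in both PBS groups, and *Ccl19* in contralateral PBS legs, and they were tested only because of their levels after HRS, so counts over the tested genes describe them and support nothing further. Between HRS legs and contralateral PBS legs, 5 of the 6 tested genes were called, all higher, against a background of 16.9% of all genes called higher. Their median log2 fold change was 2.42, beside 0.08 for all tested genes. For the 4 genes under the filter, exact permutation tests of the libraries are given, with ratios of implied reads whose 95% intervals cover counting error only.

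**Figure D1:**
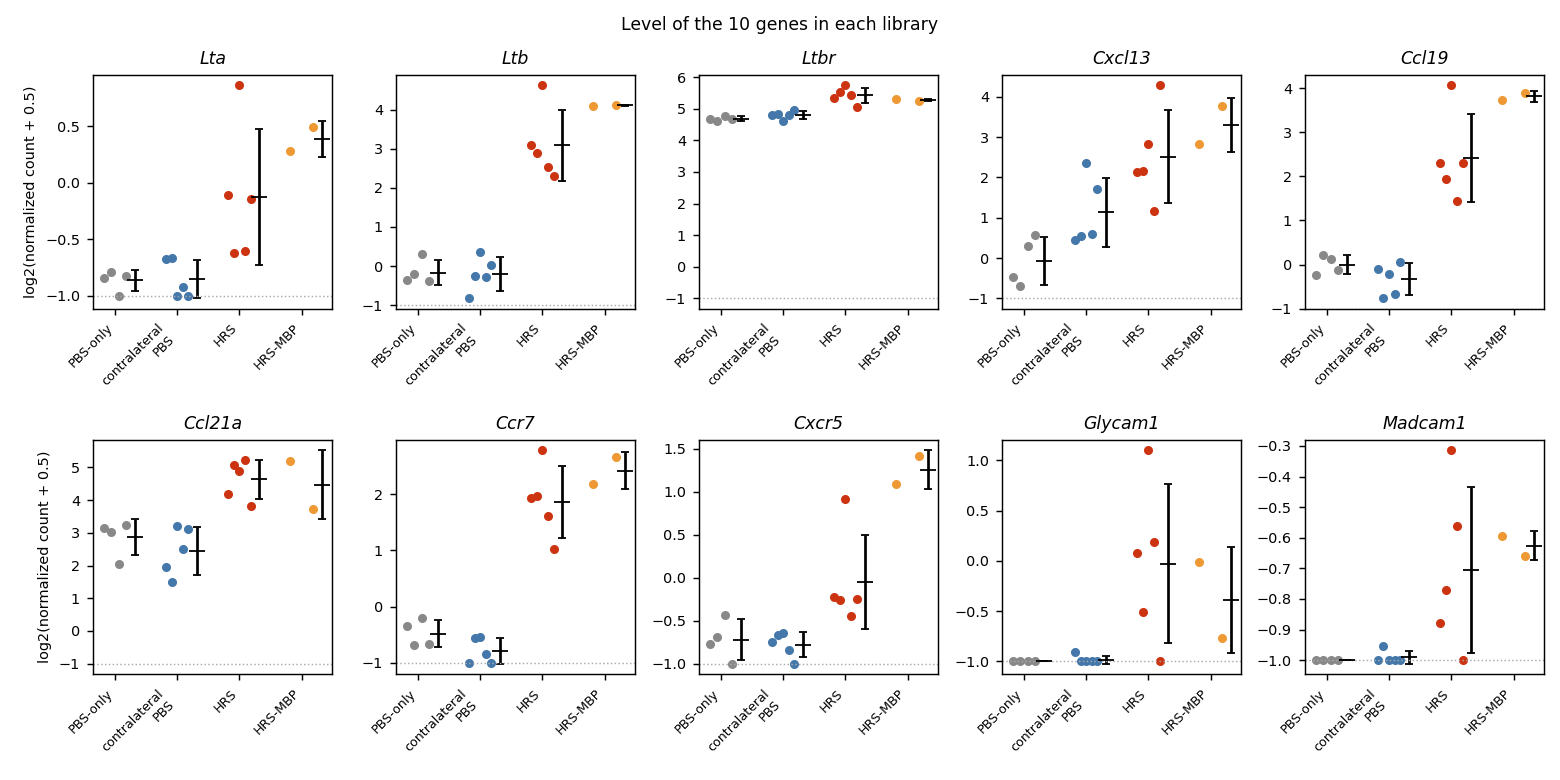
Level of each of the 10 genes in every library, on the log2(normalized count + 0.5) scale, 1 point per library, with the mean and SD of each group beside its points. Each panel has its own vertical scale, and the dotted line at −1 is a value of 0. For 7 genes the 5 HRS legs lie above all contralateral PBS legs. *Cxcl13*, *Glycam1* and *Madcam1* overlap.

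*Lta* (chr17:35203165-35205351) and *Ltb* (chr17:35194439-35196320) lie next to each other with *Tnf* in the major histocompatibility region. All 10 genes are annotated as protein-coding, and their positions are given as deposited, on GRCm38 coordinates. *Ltb* encodes the membrane anchor of the lymphotoxin trimer. It was at 8.1, 6.93, 24.2, 5.29 and 4.42 normalized counts in the HRS legs of m862, m863, m864, m865 and m866, and at 0.0641, 0.346, 0.785, 0.323 and 0.512 in their contralateral PBS legs. The PBS-only libraries held 0.284 and 0.364 in the right and left leg of m867 and 0.728 and 0.261 in those of m868. The lowest HRS leg was thus above the highest of the 9 PBS libraries, and the HRS leg of m864 stood well above the other four. The log2 fold change was 3.29 ± 0.351 (SE) against contralateral PBS legs (limma, adjusted p = 5.52e-06) and 3.26 ± 0.372 against PBS-only mice (adjusted p = 9.25e-06). In reads, the ratio to contralateral PBS legs was 25.8 (20.4 to 33.2), and it was 17.3 without the HRS leg of m864.

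*Lta*, whose product also forms a secreted homotrimer, was far less abundant. It was at 0.426, 0.151, 1.32, 0.16 and 0.405 in the HRS legs of m862 to m866 and at 0.128, 0.132, 0, 0.0294 and 0 in the contralateral PBS legs, while the PBS-only libraries lay between 0 and 0.0809. All HRS legs were above all PBS libraries, although m863 was so by a small margin (0.151 against 0.132, or 14 reads against 8). The exact two-sided permutation p for HRS against contralateral PBS legs was 0.00794, the smallest that 5 against 5 libraries can give. From 139 and 13 implied reads the ratio was 6.48 (3.67 to 12.5), and it was 3.71 without the HRS leg of m864 and 11.3 without the contralateral PBS leg of m863. A microRNA gene, *Mir6974*, lies within *Lta*, and *Mir6973a* within *Ltb*, in each case on the same strand.

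*Ltbr* (chr6:125306571-125313885) encodes the receptor for the lymphotoxin trimer and for LIGHT, and is known from stromal and myeloid cells rather than lymphocytes. It was at 39.8, 45.4, 53, 42.4 and 32.9 in the HRS legs and at 27.1, 27.7, 23.7, 27.1 and 30.8 in the contralateral PBS legs of m862 to m866. The PBS-only libraries lay between 23.7 and 26.8. The groups did not overlap, but m866 came close, with 32.9 in its HRS leg and 30.8 in its PBS leg. Its log2 fold change of 0.62 ± 0.111 (limma, adjusted p = 0.000396) was under the fold required for a call. That against PBS-only mice was 0.74 ± 0.118 (adjusted p = 0.000156).

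Of the other genes of this signalling route, 16 of a list of 17 were tested and 10 were called higher in HRS legs than in contralateral PBS legs, with 0 lower. Of all tested genes, 16.9% were called higher. The median log2 fold change of the list was 1.5. *Tnf*, the neighbouring cytokine, changed most, from 0.222 to 8.4 normalized counts on average, a log2 fold change of 3.46 (limma, adjusted p = 2.1e-06). *Tnfsf14*, which encodes LIGHT, the other ligand of the lymphotoxin β receptor, rose by 1.72 (adjusted p = 0.000134), and *Tnfrsf14*, the herpesvirus entry mediator that also binds LIGHT, by 2.48 (adjusted p = 3.7e-05). Within the noncanonical NF-κB route, named here after their values were seen, *Relb* rose by 1.59 and *Nfkb2* by 1.64 on the log2 scale, whereas the kinase gene *Map3k14* had 0.7 and was not called. *Relb* and *Nfkb2* are also known targets of canonical NF-κB.

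*Cxcl13* (chr5:95956951-95961068) encodes the follicular chemokine. Its levels in the HRS legs of m862 to m866 were 3.92, 3.94, 6.57, 1.74 and 19. The PBS legs opposite them held 0.865, 0.972, 4.66, 1 and 2.75. In the PBS-only libraries it was at 0.227 and 0.121 in m867 and at 0.728 and 0.978 in m868. The HRS leg was the higher one in every mouse, yet the groups overlapped, because the PBS legs of m864 and m866 were above the HRS leg of m865. The log2 fold change against contralateral PBS legs was 1.38 ± 0.512 (limma, adjusted p = 0.0291) and the exact permutation p was 0.0635. This call was the least firm of the 5: without the HRS leg of m866 the adjusted p was 0.0637, and without that of m864 it was 0.0598. It was also lost when any 1 of the contralateral PBS legs of m862, m863 and m865 was left out, at adjusted p between 0.0676 and 0.0724. Against PBS-only mice the log2 fold change was 2.59 ± 0.543 (adjusted p = 0.00119), and no HRS leg overlapped with a PBS-only leg.

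*Ccl19* (chr4:42754525-42756577) encodes a ligand of CCR7 made by fibroblastic reticular cells and mature dendritic cells. It was at 4.47, 3.37, 16.3, 2.21 and 4.45 in the HRS legs of m862 to m866, and at 0.439, 0.0873, 0.363, 0.132 and 0.543 in the contralateral PBS legs. The PBS-only libraries lay between 0.347 and 0.668. No PBS library of either kind came near the lowest HRS leg, that of m865. Its log2 fold change was 2.75 ± 0.359 against contralateral PBS legs (limma, adjusted p = 3.06e-05) and 2.42 ± 0.381 against PBS-only mice (adjusted p = 0.000137). The ratio of 20.9 to contralateral PBS legs (15.9 to 28.1) was 12.6 without the HRS leg of m864.

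*Ccl21a* (chr4:42772860-42773993) encodes the other CCR7 ligand, made by lymphatic endothelium and by the stroma and venules of lymph nodes. Per kilobase of exon it was the most abundant of the 10 genes in HRS legs, with a mean level of 29.9 normalized counts per kb, followed by *Ltbr* at 18.1, *Ccl19* at 7.1, *Ltb* at 6.45 and *Cxcl13* at 6.13. *Ccl19*, *Ltb* and *Cxcl13* cannot be ordered, since their means lie well within their spread over mice. By mean level *Ltbr* came first in both PBS groups, with of 11.6 per kb in contralateral PBS legs and 10.7 in PBS-only libraries against 6.39 and 8.18 for *Ccl21a*, and in HRS-MBP mouse m861 the levels were 15.9 and 14.6. *Ccl21a* was at 17.6, 33.2, 29.1, 36.6 and 13.7 in the HRS legs of m862 to m866 and at 3.39, 2.31, 8.67, 5.22 and 8.18 in the contralateral PBS legs. The PBS-only libraries held 8.38 and 7.57 in m867 and 3.64 and 8.88 in m868. It was thus well detected in uninflamed muscle, and m866 showed the smallest step, from 8.18 to 13.7. Its log2 fold change was 2.18 ± 0.388 against contralateral PBS legs (limma, adjusted p = 4e-04) and 1.78 ± 0.412 against PBS-only mice (adjusted p = 0.00224).

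The table has 3 further rows for near-identical copies of this gene on chromosome 4, *Ccl21b*, *Ccl21d* and *Gm10591*, so a read may not have a single origin. To show how little there is to tell them apart, positions 61 to 240 of the coding sequence (counted from the start codon, GENCODE M21 transcripts) are given here, with the positions that differ in capitals.
Ccl21a: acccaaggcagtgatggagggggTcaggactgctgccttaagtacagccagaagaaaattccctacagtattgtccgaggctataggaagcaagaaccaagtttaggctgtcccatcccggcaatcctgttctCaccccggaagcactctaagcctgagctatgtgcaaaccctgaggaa
Ccl21b: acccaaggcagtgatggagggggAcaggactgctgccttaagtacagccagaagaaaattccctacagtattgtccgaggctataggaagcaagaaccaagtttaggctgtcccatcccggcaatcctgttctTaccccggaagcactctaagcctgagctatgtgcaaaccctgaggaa
Gm10591: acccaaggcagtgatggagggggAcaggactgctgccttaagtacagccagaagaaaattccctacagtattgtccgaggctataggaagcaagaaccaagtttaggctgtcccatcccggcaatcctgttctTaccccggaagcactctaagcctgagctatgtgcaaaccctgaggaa
Over the whole coding sequence of 402 bases, *Ccl21b* and *Gm10591* each carry the same 2 substitutions relative to *Ccl21a*, T84A in codon 28 and C194T in codon 65, an identity of 99.5%. *Ccl21b* and *Gm10591* had equal values in 11 of 16 libraries (within a relative tolerance of 1e-06).

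The 4 copies were therefore also summed. The sum was 40 ± 15.5 (SD, *n* = 5) in HRS legs, 8.77 ± 3.77 (SD, *n* = 5) in contralateral PBS legs, 10.5 ± 3.91 (SD, *n* = 4) in PBS-only libraries and 43.6 ± 28.8 (SD, *n* = 2) in HRS-MBP libraries. The *Ccl21a* row held 61.9% to 67.1% of the sum in HRS legs and 51.7% to 69.9% in contralateral PBS legs. It was lower in HRS-MBP libraries (54.6% and 57%) than in PBS-only libraries (63.2% to 75.2%). Between these groups the log2 fold change was 1.6 for the row and 1.93 for the sum, and between HRS-MBP libraries and HRS legs, where neither was called, it was −0.17 and 0.05. The log2 fold change of the sum against contralateral PBS legs was 2.14 (limma, adjusted p = 0.000443). A noncoding gene on the opposite strand, *4930578G10Rik*, spans both *Ccl19* and *Ccl21a*. Its own mean was 0.0569 in HRS legs and 0.0666 in contralateral PBS legs, far under the levels of both chemokines, and whether the counting used strand is not given in the sources used here.

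**Figure D2:**
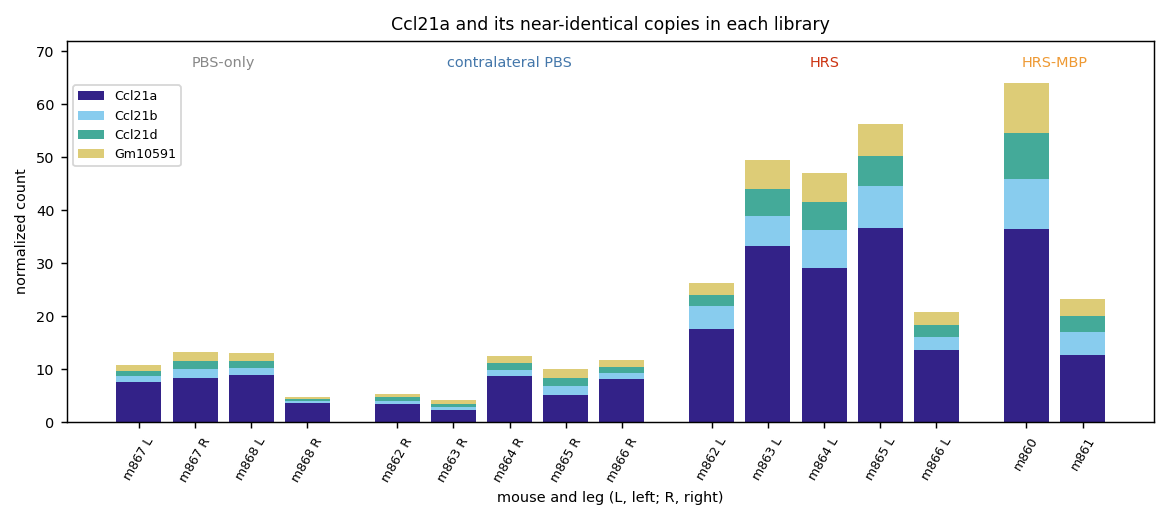
Normalized counts of *Ccl21a* and of its copies *Ccl21b*, *Ccl21d* and *Gm10591*, stacked for each library and grouped by treatment. The summed bars reach 20.8 to 56.4 in the 5 HRS legs and at most 13.2 in the 9 PBS libraries. HRS-MBP mouse m860 is the highest of all at 64.

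*Ccr7* (chr11:99144196-99155077), the receptor for both CCL19 and CCL21 on naive and central memory T cells and on migrating dendritic cells, was nearly absent without HRS. It was at 3.34, 3.39, 6.36, 2.56 and 1.53 in the HRS legs of m862 to m866 and at 0, 0.181, 0.185, 0.0588 and 0 in the contralateral PBS legs. The PBS-only libraries lay between 0.121 and 0.364, the latter from 3 reads in the shallowest library. The lowest HRS leg, that of m866, still held 49 implied reads, against 17 in the 5 contralateral PBS legs together. The log2 fold change was 2.65 ± 0.258 against contralateral PBS legs (limma, adjusted p = 2.8e-06) and 2.34 ± 0.273 against PBS-only mice (adjusted p = 1.09e-05). The pseudocount compresses these values, and the ratio of reads to contralateral PBS legs was 38.8 (24.1 to 66.9), or 73.9 without the contralateral PBS leg of m863.

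*Cxcr5* (chr9:44511787-44561877), the receptor for CXCL13, was at 0.353, 0.335, 1.38, 0.232 and 0.344 in the HRS legs of m862 to m866 and at 0.0964, 0.132, 0.14, 0.0588 and 0 in the contralateral PBS legs. Among PBS-only libraries it lay between 0 and 0.243, and the highest of these was 2 reads in the shallowest library. HRS and contralateral PBS legs did not overlap (exact permutation p = 0.00794), while the HRS leg of m865 fell within the PBS-only range. From 156 and 16 reads the ratio to contralateral PBS legs was 5.91 (3.52 to 10.6), and it was 3.66 without the HRS leg of m864. The end of *Cxcr5* overlaps *Bcl9l* on the opposite strand over 110 bases. *Bcl9l* was at 67.6 ± 4.78 (SD, *n* = 5) in HRS legs and 71 ± 12.3 (SD, *n* = 5) in contralateral PBS legs, and whether its reads entered the *Cxcr5* values was not tested.

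*Glycam1* (chr15:103562759-103565081) and *Madcam1* (chr10:79664559-79668537) encode ligands for adhesion receptors on entering lymphocytes. *Glycam1* was at 0.559, 0.205, 1.64, 0.641 and 0 in the HRS legs of m862 to m866, in total 185 implied reads. Among the 9 PBS libraries it was above 0 only in the right leg of m862, with 1 read. *Madcam1* was at 0.0441, 0.0864, 0.304, 0.178 and 0 in the same HRS legs, in total 38 reads, and among PBS libraries only the right leg of m863 had 1 read. Both genes were thus detected in the same 4 HRS legs and in neither leg of m866. Both were also detected in the HRS-MBP libraries, with *Glycam1* at 0.489 and 0.089 and *Madcam1* at 0.163 and 0.133 in m860 and m861. The ratio of HRS to contralateral PBS legs was 112 (19.9 to 4449) for *Glycam1* and 23 (3.89 to 933) for *Madcam1*, and the exact permutation p was 0.0476 for each. Against PBS-only mice, which had no read of either gene, *Glycam1* was at least 16.9-fold higher and *Madcam1* at least 3.47-fold higher, at a floor of 3 reads over the group. When the m864 HRS leg was left out, the ratio to contralateral PBS legs was 69 for *Glycam1* and 15.6 for *Madcam1*. The ratios to PBS-only mice counted as 3 reads were then 10.4 and 2.35.

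*Glycam1* is also a gene of the lactating mammary gland. Keratin 14 and keratin 5 RNA (*Krt14*, *Krt5*), which mark the basal layer of mammary and skin epithelium, were highest in the contralateral PBS leg of m864, at 18.8 and 24.6, where *Glycam1* and *Madcam1* were at 0. The milk protein gene *Csn3* was highest in the contralateral PBS leg of m863 at 2.82, where *Glycam1* was also at 0. In the HRS leg of m864, which had the most *Glycam1*, *Krt14* was at 0.214 and *Csn3* at 0.0179. *Krt8* and *Krt18*, keratins of simple and luminal epithelium, had means of 9.91 and 17.6 in HRS legs, 5.88 and 6.02 in contralateral PBS legs and 0.79 and 0.681 in PBS-only libraries. Both were called higher in HRS legs than in PBS-only mice (limma, adjusted p = 0.0331 and 0.00719) and neither against contralateral PBS legs (adjusted p = 0.347 and 0.117). The summed level of 8 epithelial genes was 37.9, 33.7, 24.1, 45 and 0.561 in the HRS legs of m862 to m866, so it was high in the 4 legs with *Glycam1* and low in the leg without it. It was 0.641, 38.7, 46.5, 2.94 and 37.4 in the contralateral PBS legs, high in 3 legs in which *Glycam1* was at 0, at most 5.42 in PBS-only libraries, and 29 and 24 in HRS-MBP libraries. Its part in the *Glycam1* values was not tested.

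Other genes of high endothelial venules were more abundant and were tested. Of a list of 14, 13 are in the table and 12 passed the filter, and 7 were called higher and 1 lower in HRS legs than in contralateral PBS legs. The share of all tested genes called higher was 16.9%. *Chst2*, a sulfotransferase that modifies the glycans of these vessels, rose by 1.76 on the log2 scale (limma, adjusted p = 0.000669), and *Fut7*, a fucosyltransferase of the same glycans that is also active in leukocytes, by 1.5 (adjusted p = 0.000787). *Icam1*, an adhesion molecule of inflamed endothelium in general, changed most at 2.87 (adjusted p = 2.73e-06). *Podxl2* was the gene called lower, at −1.08 (adjusted p = 0.00123). *Chst4*, the sulfotransferase most restricted to these venules, was under the filter. It was above 0 in 2 libraries of the 16, the HRS legs of m863 (0.0324) and m864.

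The promoters of these genes were searched for the NF-κB consensus in the 250 bases before each RefSeq start (GRCm38.p6), on both strands. Promoters were found for 8 of the 10 genes, and *Ltb* and *Madcam1* hold a match, beside 3.9% of 32851 promoters in the RefSeq table. The stretches with these matches are given, 5′ to 3′ on the strand of the gene, matches in capitals.
Ltb (chr17:35194357-35194438): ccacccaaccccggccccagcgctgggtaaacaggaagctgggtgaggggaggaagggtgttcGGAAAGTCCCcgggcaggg
Madcam1 (chr10:79664409-79664558): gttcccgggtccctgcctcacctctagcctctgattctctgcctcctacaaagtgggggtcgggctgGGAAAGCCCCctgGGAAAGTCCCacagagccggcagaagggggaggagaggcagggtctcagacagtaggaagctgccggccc
*Madcam1* has 2 matches, starting 83 and 70 bases before its start, and *Ltb* has 1, starting 87 bases before its RefSeq start. The RefSeq start of *Ltb* lies 68 bases inside the deposited gene, whose own start is 19 bases after the first base of the match, and the printed stretch ends there. A match describes letters in a window and does not show that the site is bound. No match was found in these windows for *Cxcl13*, *Ccl19*, *Ccl21a*, *Lta*, *Ltbr* or *Glycam1*. The *Ccl19* window (chr4:42756366-42756615, minus strand) lies mostly inside the deposited gene, which starts at 42756577. Little sequence before that start was therefore searched.

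Compared leg by leg, which asks whether the injected leg differed from the other leg of the same animal, the HRS leg had the higher level in 5 of 5 mice for 8 of the 10 genes, and in 4 of 5 for *Glycam1* and *Madcam1*. The exact sign-flip p was 0.0625 for the 8 genes, the smallest that 5 mice allow, and larger for the addressins, which were at 0 in both legs of m866. The mean difference on the log2(normalized count + 0.5) scale was 3.29 ± 0.809 (SD over mice) for *Ltb*, 2.75 ± 0.886 for *Ccl19* and 2.65 ± 0.498 for *Ccr7*. In limma with mouse as a block, the same 5 genes were called higher, beside 16.5% of all genes. In 7 of the 10 genes, every HRS leg was above every contralateral PBS leg, against 13.3% of all 26382 genes. Against PBS-only mice, which show the level in animals that never met the protein, 7 of 10 again did not overlap, against 19.8% of all genes, and here *Cxcr5*, *Glycam1* and *Madcam1* overlapped. The limma test called 5 of the 6 tested genes higher against PBS-only mice, with a background of 18.9%. These comparisons share the HRS libraries and are not independent. The 4 PBS-only libraries come from 2 mice, and with the legs of each mouse averaged the same number, 5, was called.

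**Figure D3:**
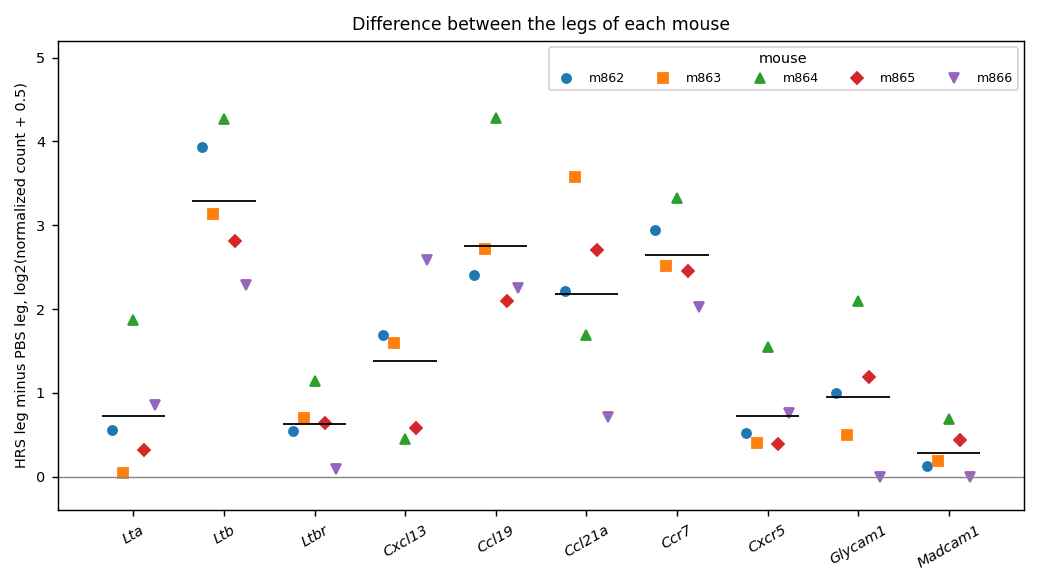
Difference between the HRS leg and the PBS leg of each of the 5 mice on the log2(normalized count + 0.5) scale, 1 symbol per mouse, with the mean as a bar. Mouse m864 has the largest difference for *Ltb*, *Ccl19*, *Ccr7* and *Cxcr5* and the smallest for *Cxcl13*, whereas m866 has the largest for *Cxcl13* and none for *Glycam1* and *Madcam1*.

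The HRS legs did not rank alike for every gene. The HRS leg of m864 was highest for 8 of the 10 genes, the exceptions being *Cxcl13*, highest in m866, and *Ccl21a*, highest in m865. The HRS leg of m866 was lowest for 6 genes, including *Ccl21a*, *Ccr7* and *Ltb*, and highest for *Cxcl13*. The high *Cxcl13* value of m866 rests on 611 implied reads.

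The contralateral PBS legs were compared with PBS-only mice to see whether the PBS-injected side differed from muscle of animals without HRS. None of the 6 tested genes was called (limma), with 0.00609% of all genes called in either direction. At an unadjusted p under 0.05 there was 1 of the 6, beside 5.5% of all genes. That gene was *Cxcl13*, with a log2 fold change of 1.2 ± 0.543 (unadjusted p = 0.0421, adjusted p = 0.886, exact permutation p = 0.0714). Its read ratio was 4.56 (3.17 to 6.79), and it was 3.52 when the m867 right leg was left out and 7.01 when the m868 left leg was. For the other 5 the log2 fold changes lay between −0.4 and 0.11, with *Ccl21a* at −0.4 ± 0.412. Read ratios, whose intervals cover counting error and not the spread between libraries, were 0.638 (0.577 to 0.707) for *Ccl21a*, 0.588 (0.382 to 0.911) for *Ccl19* and 0.427 (0.207 to 0.878) for *Ccr7*, which had 17 reads on the contralateral side. The *Ccr7* ratio was 0.224 without the contralateral PBS leg of m863. *Ltb* and *Ltbr* had ratios of 1.09 and 1.11.

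The HRS-MBP libraries, from mice given the fusion protein, were set against PBS-only mice in the same fit. *Ltb* was at 16.6 and 16.9 in m860 and m861, *Ccl19* at 12.8 and 14.4, *Cxcl13* at 6.58 and 13.2, *Ccl21a* at 36.5 and 12.7, and *Ccr7* at 4.05 and 5.8. All 10 genes were above every PBS-only library, as were 33.3% of all genes, and 5 of 6 were called higher by limma with a background of 20.7%. The log2 fold changes were 4.27 ± 0.48 for *Ltb* (adjusted p = 7.7e-06), 3.82 ± 0.492 for *Ccl19* (adjusted p = 2.21e-05) and 3.37 ± 0.701 for *Cxcl13* (adjusted p = 0.00118). They were 2.9 ± 0.353 for *Ccr7* and 1.6 ± 0.531 for *Ccl21a*, and 0.59 ± 0.152 for *Ltbr*, which was not called. The *Ccl21a* call rested on m860: without that mouse 4 genes were called, and the read ratio of *Ccl21a* fell from 3.23 to 1.63. The smallest exact p for 4 against 2 libraries is 0.0667.

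Against HRS legs, none of the 6 was called in HRS-MBP libraries (limma), with 0.463% of all genes called, and 2 had an unadjusted p under 0.05, beside 14.4% of all genes: *Ccl19* (log2 fold change 1.4 ± 0.475, adjusted p = 0.207) and *Ltb* (1.01 ± 0.464, adjusted p = 0.334). Both were called when the HRS leg of m864 was left out. *Cxcr5* was at 1.63 and 2.16, above every HRS leg, as was the case for 7.41% of all genes. Its ratio to HRS legs was 3.68 (2.95 to 4.59), with an exact permutation p of 0.0476, the smallest for 5 against 2 libraries, and the ratio was 5.93 without the HRS leg of m864. Without the filter on low values *Cxcr5* was the only one of the 10 genes called (log2 fold change 1.31, adjusted p = 0.0407). Dose, fusion partner and the leg sampled differ between these groups or are not stated, and cannot be told apart.

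**Figure D4:**
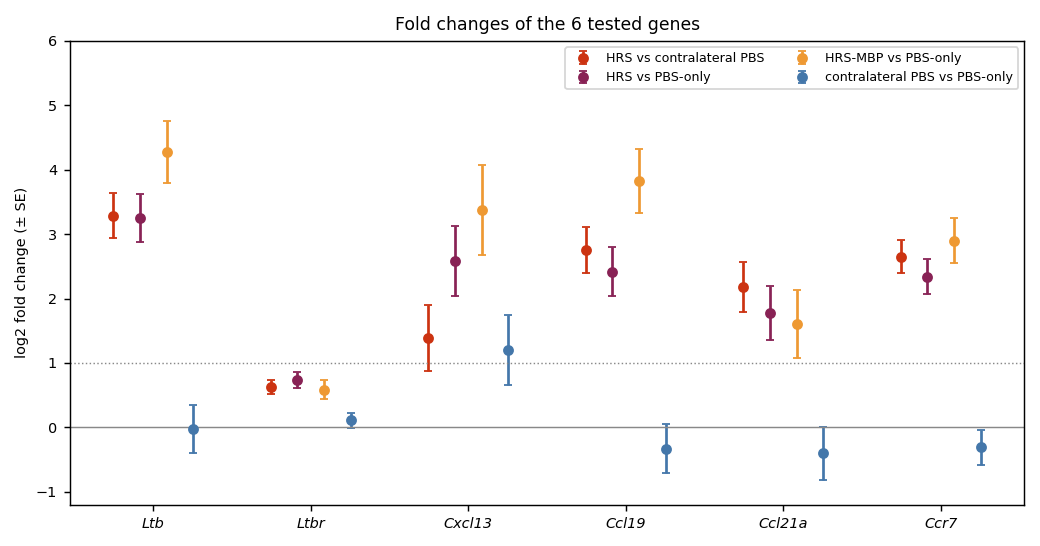
Log2 fold changes of the 6 tested genes with their standard errors from the 4-group limma fit, for 4 comparisons. The dotted line is the fold required for a call. The 3 comparisons with HRS or HRS-MBP lie above it for all genes but *Ltbr*, and contralateral PBS against PBS-only lies near 0 for all but *Cxcl13*.

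Markers of lymphocytes and myeloid cells moved with these genes. The summed level of 12 T cell markers was 57.6 to 291 in HRS legs, 19.6 to 35.9 in contralateral PBS legs, 21.4 to 32.4 in PBS-only libraries and 224 and 273 in HRS-MBP libraries. *Thy1* alone averaged 77.3 in HRS legs and 23.7 in contralateral PBS legs, the largest part of this sum. All 12 were called higher between HRS and contralateral PBS legs, where 16.9% of all tested genes were. Of 13 B cell markers, 11 were tested and 8 called higher. Their sum was 33.1 to 107, 22 to 46.3 and 19.9 to 29.6 in HRS, contralateral PBS and PBS-only libraries and 90.7 and 126 in HRS-MBP. *Ebf1*, which was not called, averaged 40.8 in HRS legs and 25.8 in contralateral PBS legs, the largest part of that sum. Among B cell defining genes, *Ms4a1* (CD20) was at 5.61 in the HRS leg of m864 and between 0.529 and 1.18 in the other 4. All 7 macrophage markers were called higher, with a sum of 390 to 1730 in HRS legs and at most 129 in PBS libraries. In bulk muscle, more cells of a type and more RNA per cell cannot be told apart, and the part these cells play in each gene's level was not tested.

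Across the 7 HRS and HRS-MBP libraries, Pearson correlations on the log2 scale describe which genes ran with which markers. *Ccr7* ran with T cell markers (r = 0.98), and nearly as closely with B cell (0.94) and macrophage markers (0.92). For *Ltb* these values were 0.92, 0.83 and 0.86, so neither gene ran with 1 cell type alone. *Ccl21a* ran with lymphatic endothelial markers (r = 0.96), also with those of mature migratory dendritic cells (r = 0.84), and less with T cell markers (r = 0.25). *Pdpn*, which fibroblastic reticular cells also express, made up 29.8% to 54.8% of the lymphatic sum. Without it, a choice made after seeing the data, r was 0.86, and with *Prox1* and *Lyve1* alone it was 0.75 and 0.82. *Reln* and *Foxc2* ran with *Ccl21a* least of the 7, at 0.48 and 0.39. *Cxcl13* ran with neither T cell (r = −0.11) nor B cell markers (r = −0.1). The T cell and B cell sums lean on *Thy1* and *Ebf1*, and no correlation was taken without these genes. Points share the groups and the muscle content of each leg, so no p is given. The lymphatic list itself was called higher for 2 of 7 markers, *Pdpn* and *Mmrn1*, beside 16.9% of all tested genes, a count too small to be told from that share. *Prox1* and *Lyve1*, which define lymphatic endothelium, had log2 fold changes of 0.47 and −0.37 between HRS and contralateral PBS legs and were not called (adjusted p = 0.083 and 0.246).

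**Figure D5:**
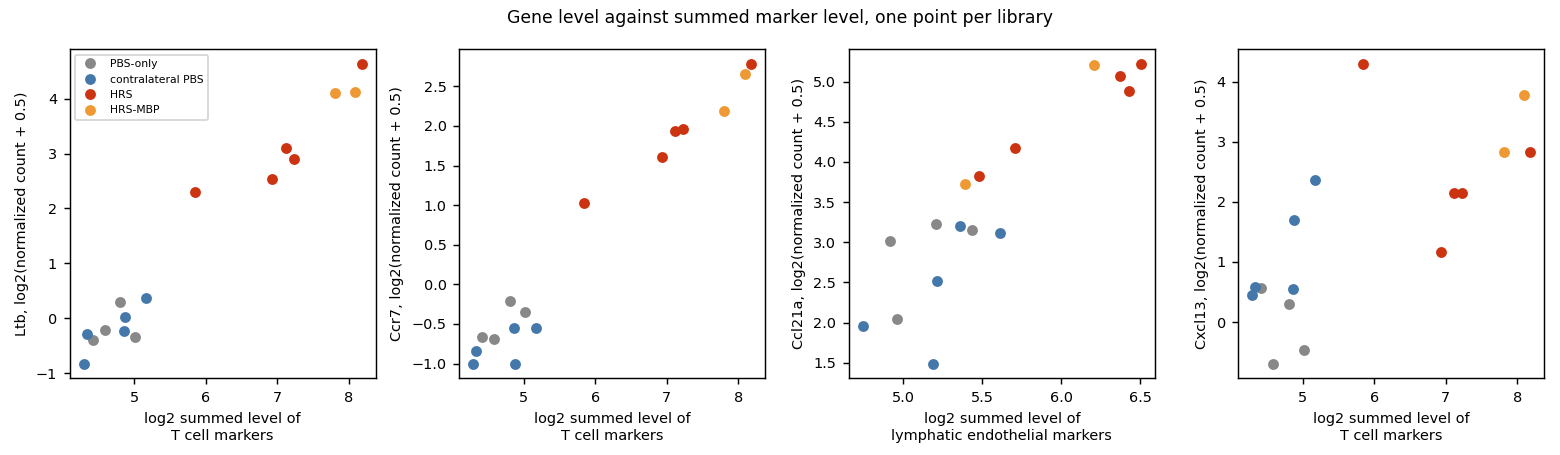
Level of *Ltb*, *Ccr7*, *Ccl21a* and *Cxcl13* in each of the 16 libraries against the log2 summed level of T cell or lymphatic endothelial markers, colored by group. *Ltb* and *Ccr7* rise with T cell markers among the 7 HRS and HRS-MBP libraries (r = 0.92 and 0.98), and *Cxcl13* does not (r = −0.11), its highest library having the fewest T cell markers of the 7.

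Over all 16 libraries, the tested genes whose pattern was most like that of each gene differed between them. For *Ltb* these were *Itgal*, *Clec4e* and *Il18rap* (r = 0.994 each), and for *Ccr7* they included *Adgre4* (r = 0.99) and *Sirpb1c* (0.989). For *Ccl19* they were *Ubd*, *AW112010* (both 0.987) and *Il12rb1* (0.985). For *Cxcl13* the closest was *Ly6c1* (r = 0.952), an antigen of endothelium and monocytes, followed by *Xdh* (0.883) and *Igtp* (0.882). For *Ccl21a* they were *Gm14150* (0.954) and the copies *Ccl21b* and *Gm10591*, and for *Ltbr* they were *Cmpk1* (0.988), *Gnb2* (0.98) and *Il1r1* (0.979).

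Of the other guidance cues and receptors of lymphoid tissue, 16 of the 17 in the table were tested, and 11 were called higher in HRS legs than in contralateral PBS legs, with 0 lower. Among all tested genes 16.9% were called higher. Of the 11, 2 are the *Ccl21a* copies *Ccl21b* and *Ccl21d*, which may share its reads. Named after its values were seen, *Itgb7*, the integrin β7 chain of a MAdCAM-1 receptor, rose by 3.29 on the log2 scale (limma, adjusted p = 2.1e-05). *S1pr1*, the receptor by which lymphocytes leave tissue and which endothelium also carries, had a log2 fold change of −0.19 (limma, adjusted p = 0.117). *Ccr6*, another chemokine receptor of B cells, was at 0 on average in both PBS groups and at 0.0725 in HRS legs.

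Markers of the structures themselves were mixed. Between HRS and contralateral PBS legs 16.9% of all tested genes were called higher, and counts of 1 in 4 or 1 in 3 genes cannot be told from that share. Among 8 genes of fibroblastic reticular cells, the stroma that makes CCL19 and CCL21 in lymph nodes, 7 were tested and 5 were called higher, led by *Bst1* at 4.19 (limma, adjusted p = 7.67e-06), a gene that myeloid cells also express. Of 7 genes of follicular dendritic cells, the classic source of CXCL13, 4 were tested and *Fcgr2b* alone was called higher, a gene also expressed by B cells and macrophages. The defining genes *Cr2* and *Fcer2a* stayed under the filter, with means of 0.197 and 0.489 in HRS legs and 0.052 and 0.148 in contralateral PBS legs. Of 14 genes of germinal centers and follicular helper T cells, 8 were tested and 5 called higher. *Il21r* changed most at 4.02 (adjusted p = 4.42e-06), and *Bcl6* was at −0.68 and was not called. Of 9 genes of mature migratory dendritic cells, 7 were tested and 6 called higher, and *Lamp3* was under the filter at 0.344 in HRS legs and 0.441 in contralateral PBS legs. Of 8 genes of naive and central memory lymphocytes, 5 were called higher and *Satb1* lower. Of 4 genes of type 3 lymphocytes in the table, 3 were tested, with 1 called higher (*Il1r1*) and 1 lower.

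Genes of muscle and fat were lower in most HRS legs. Of 9 muscle fiber genes, 5 were called lower in HRS legs than in contralateral PBS legs, as were 1029 of all 16414 tested genes. The sum of the 9 was 38544 in the HRS leg of m864 and 160576 in that of m866, against 116063 to 189102 in contralateral PBS legs. The lowest of these was that of m866, the 1 mouse whose HRS leg had the higher muscle sum. All 5 adipocyte genes were called lower than in contralateral PBS legs and *Retn* alone against PBS-only mice. In the latter comparison 963 of all 16414 tested genes were called lower. The adipocyte sum was 1248 in the contralateral PBS leg of m866 against 73.6 to 187 in the other 4, and without that leg, an alternative added after seeing the data, 2 adipocyte genes (*Adipoq* and *Retn*) and 6 muscle genes were called lower. Of 5 tested epithelial genes *Krt5* was called lower than in contralateral PBS legs, while *Krt8* and *Krt18* were called higher in HRS legs than in PBS-only mice. The share of mitochondrial transcripts was 3.41% to 11.1% in HRS legs and 9.69% to 13.1% in PBS libraries. The libraries were sequenced on several platforms that the labels do not assign, so platform and treatment cannot be told apart.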

How the data were processed

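The authors deposited 1 table of normalized counts for the 16 mouse muscle libraries, a signal that is never negative. Libraries were made with poly(A) selection and a directional kit. The submitters' processing notes name STAR 2.7.8a, limma and mm39. The annotation, the counter and the scaling are not given in the sources used here. The deposited coordinates, however, fit GENCODE M21 on GRCm38: of 25623 genes matched by symbol and chromosome, 99.0% had the same start, and an end 1 base before the deposited stop. Between 75.1% and 77.5% of the low values were whole multiples of a library's step (within 0.02 of a step, up to 20 steps). That is not nearly all, so no count model was used, and the step gave only implied reads and depth.

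Groups followed the labels and titles. Log2(normalized count + 0.5) was fitted with limma 3.58.1 in R 4.3.3 (lmFit, then eBayes with trend), 4 groups in 1 fit, over genes whose mean reached 0.5, with Benjamini-Hochberg adjustment over 16414 genes. Single genes were compared by exact two-sided permutation of the libraries in Python 3.11.15 with scipy 1.17.1, unadjusted. Read ratios carry exact 95% intervals from a binomial split, for counting error only. Legs of the same number come from the same mouse, so the numbers pair them, although their deviations from the group means correlated across genes at only −0.37 to 0.16. The fit was tested on simulated data in which each library was drawn independently, so that check does not cover legs that share a mouse. The 10 genes, the gene lists and the tests were chosen with earlier results of these data known. All 10 genes are named, and of each list up to 4: the defining genes and the largest change. For likeness, the 3 tested genes with the highest correlation are named. The alternatives were the pseudocount, the filter, scaling, the variance trend, the libraries in the fit, the mouse block, averaged PBS-only legs and each library left out. Summing the *Ccl21* copies was added after the data were seen. A few genes of these lists are not reported here.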

Additional observations from a re-analysis of the deposited data

Results flagged for a closer look

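In 31 groups of 4 or 5 libraries compared by gap over range, 7 held a library far from the others. The groups share libraries and their genes ran together, and a group with 1 value above 0 is always flagged. The count is therefore not set against a chance rate. The HRS leg of m864 stood apart for *Ltb* at 24.2 normalized counts (next 8.1), for *Ccl19* at 16.3 (next 4.47), for *Cxcr5* at 1.38 (next 0.353) and for *Lta* at 1.32 (next 0.426). The HRS leg of m866 stood apart for *Cxcl13*, at 19 against 6.57 in the next leg. Among contralateral PBS legs, the right leg of m862 was the only one above 0 for *Glycam1*, at 0.032, and the right leg of m863 the only one for *Madcam1*, at 0.0165, each a single implied read.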

How the results depend on the processing

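Calls between HRS and contralateral PBS legs held for *Ccl19*, *Ccl21a*, *Ccr7* and *Ltb* under every alternative that tested them, and so did the 5 calls against PBS-only mice. A filter at a mean of 2 left out *Ccr7*, which gave 4 called genes in each of these comparisons and in HRS-MBP against PBS-only mice. In the last, 4 were also called with quantile normalization and without m860, and 7 without the filter on low values, *Cxcr5* and *Lta* being added (limma, adjusted p = 9.24e-05 and 0.00369). *Cxcl13* against contralateral PBS legs lost its call with a pseudocount of 2 (log2 fold change 0.98, adjusted p = 0.0336), with quantile normalization (0.96, adjusted p = 0.12), with only the libraries of the 2 groups in the fit (1.38, adjusted p = 0.0541) and without 1 library at a time, where its value lay between 0.94 and 1.31 in the 5 fits that lost it. In HRS-MBP against HRS legs, the number of genes called was 1 without a filter on low values (*Cxcr5*), and 0 to 2 when 1 library was left out, with 2 without the HRS leg of m864. With mouse as a replicate block in the paired legs, the same 5 genes were called, with *Cxcl13* at 1.38 (limma, adjusted p = 0.0217), and 3652 genes of all, 2709 of them higher. Quantile normalization shifted all tested genes, whose median log2 fold change between HRS and contralateral PBS legs was 0.08 as deposited and −0.16 after it. Depth limits *Lta*, *Cxcr5*, *Glycam1* and *Madcam1* most, which had at most 16 reads in the contralateral PBS legs together, and values near 0 in the shallowest library rest on 0 to 3 reads.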
